A study of Saccharomyces cerevisiae with 12 samples.

Results

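The pre-60S ribosome assembly genes of budding yeast (*Saccharomyces cerevisiae*) were followed across 4 strains that differ in the SUMO protease Ulp2. The set holds 46 genes, picked by systematic name from the 7108 named features of the count table because their products work on the large ribosomal subunit in the nucleolus and nucleus. All 46 were among the 6372 features with enough reads to be tested. They were chosen for the function of their proteins. Each was assigned to 1 of 11 role groups by what its protein is known to do.

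The large (60S) subunit is built on a precursor of the ribosomal RNA. In the nucleolus, methyltransferases, RNA-binding proteins and DEAD-box helicases (ATP-driven RNA-remodelling enzymes) fold that RNA together with ribosomal proteins. GTPases and AAA-type ATPases such as Rea1 and Rix7 then strip early factors off the particle, placeholder proteins hold sites for later ribosomal proteins, and export factors carry the particle through the nuclear pore. The genes for these proteins belong to the ribosome biogenesis regulon of yeast, whose promoters are known for 2 short motifs named PAC and RRPE.

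RNA was collected from exponentially growing cultures in rich glucose medium, with 3 libraries for each of 4 groups. The chromosomal *ULP2* gene was deleted in every group, since all came from strain MHY1379. WT cells carried *ULP2* on a low-copy plasmid, and nascent *ulp2Δ* cells (ulp2D in the labels) had lost that plasmid and received an empty vector. Line 6 and line 9 are 2 *ulp2Δ* lines evolved for 500 generations without Ulp2 (500G #6 and 500G #9 in the labels). The study describes its evolved lines by mutations in Uba2, a subunit of the SUMO-activating enzyme, but the labels do not tie those genotypes to line numbers. Each evolved group is a single line, so a value for line 6 or line 9 describes that line and not evolved cells in general. The labels number the libraries without saying whether they came from separate cultures, so the p-values measure only the spread between libraries, which may be technical.

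Of the 46 promoters (250 bases before the coding start to 50 bases from it), 32 (69.6%) held PAC, searched as CGATGAG on either strand, against 7.02% of 6001 promoters in the genome. RRPE, searched as AAAATTTT, which reads the same on both strands and does not overlap PAC, was found in 40 member promoters (87.0%) against 9.03% of all. Both motifs were present in 26 (56.5% against 2.63% of all promoters) and no member lacked both, whereas 86.6% of all promoters held neither. The following stretches carry both motifs and are written 5′ to 3′ on the gene's strand in the R64 (sacCer3) assembly with the motifs in capitals. They belong to 8 of the genes described below and were chosen, after the values were seen, to show both motifs in genes whose values differ between the groups in unlike ways.
HAS1: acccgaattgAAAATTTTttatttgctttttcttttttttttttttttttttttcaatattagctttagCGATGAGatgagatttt
NOG1: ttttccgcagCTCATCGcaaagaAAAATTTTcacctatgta
MAK16: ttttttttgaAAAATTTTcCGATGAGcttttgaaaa
NOP7: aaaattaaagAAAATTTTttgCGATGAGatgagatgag
MAK21: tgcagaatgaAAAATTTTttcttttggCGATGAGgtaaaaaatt
DRS1: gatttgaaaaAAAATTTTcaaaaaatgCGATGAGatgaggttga
MDN1: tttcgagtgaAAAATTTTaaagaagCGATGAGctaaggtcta
RIX7: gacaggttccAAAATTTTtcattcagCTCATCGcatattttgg
The *HAS1* stretch lies at chrXIII:851682-851767 (minus strand), that of *NOG1* at chrXVI:370825-370865 (plus strand), that of *MAK16* at chrI:101254-101289 (minus strand) and that of *NOP7* at chrVII:695266-695303 (plus strand). Those of *MAK21*, *DRS1*, *MDN1* and *RIX7* lie at chrIV:570466-570509 (plus strand), chrXII:131582-131625 (plus strand), chrXII:363928-363969 (minus strand) and chrXII:73253-73295 (minus strand). None of the 8 overlaps an annotated gene, and in them CTCATCG is PAC read from the opposite strand. In *NOG1* the PAC match lies farther from the gene than RRPE, and in the 7 others RRPE lies farther.

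**Figure D1:**
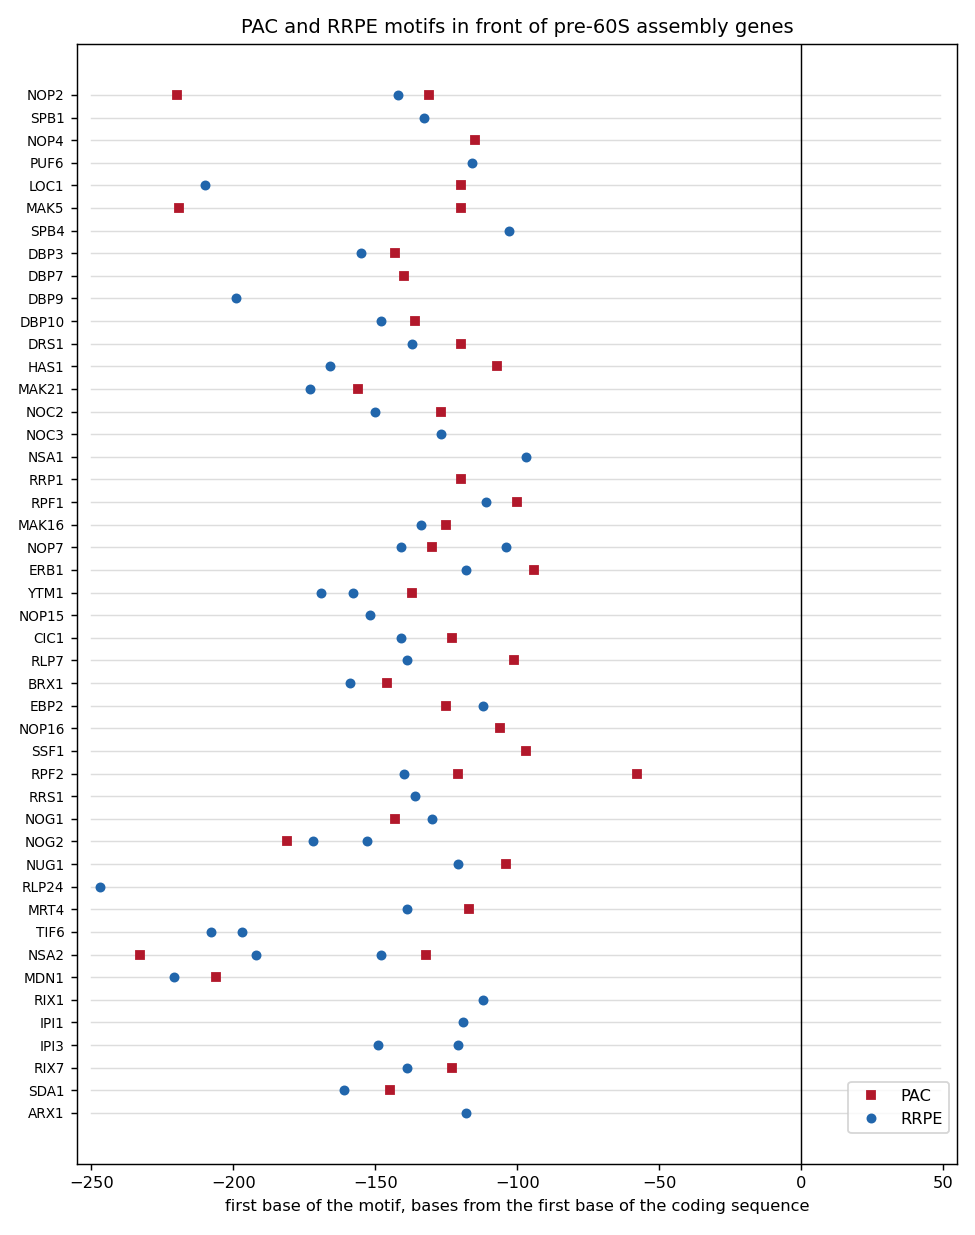
Position of each PAC (red squares) and RRPE (blue circles) match in the 46 promoters, as the distance in bases from the first base of the coding sequence (vertical line). The PAC matches have a median of -125 (-122 over all promoters) and the RRPE matches one of -141 (-136.5 over all promoters).

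Where 25 members had the motifs close enough to be read as 1 stretch of at most 90 bases, their first bases lay a median of 16 bases apart (9 to 59), and RRPE was the more distant motif in 22 of the 25. The 36 PAC matches had a median position of -125 (quartiles -143 and -116.5) and the 46 RRPE matches one of -141 (quartiles -160.5 and -122.5). Over all promoters the medians were similar, with wider quartiles. They were -122 for PAC (quartiles -166 and -79) and -136.5 for RRPE (quartiles -176 and -104). The spacing and order of the motifs were not measured in other promoters. These are matches of letters and not measured binding sites.

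The 12 libraries held 20467216 to 30719553 counts in named features, and the members had between 129 counts (*IPI1*) and 15603 counts (*MDN1*) in a library. *ULP2* itself checked the WT label, with 8519 to 10694 counts in a WT library and at most 20 in any other. It had 5 to 10 counts in nascent *ulp2Δ*, 3 to 4 in line 6 and 4 to 20 in line 9, so it cannot check these labels against each other. Among markers of cell type, the 6 MATa-specific genes were all lower in nascent *ulp2Δ* (median log2 fold change -1.44) and all higher in line 6 (1.87), and 5 of 6 were higher in line 9 (0.54). Summed as CPM (counts scaled to a common library size) of the library total, the MATa-specific genes took 1194 to 1263 in WT, 391 to 422 in nascent *ulp2Δ*, 4099 to 4402 in line 6 and 1786 to 1839.5 in line 9. Of the 4 MATalpha-specific genes, 1 was higher and 1 lower in nascent *ulp2Δ*, 1 was higher and 3 lower in line 6, and 3 were lower in line 9; their summed CPM was 71.5 to 73.2 in WT, 71.6 to 87.1 in nascent *ulp2Δ*, 109 to 115 in line 6 and 65.1 to 68.7 in line 9, and no marker of either list was at 0 in any library. *SAG1*, the 1 MATalpha-specific gene higher in line 6, held most of the counts of the 4 in every library, so their sums mainly follow it. The part of these shifts of marker genes in the results below was not tested. In RNA from a whole culture, a lower level in every cell and a different mix of cell states cannot be told apart, and every level is a share of the RNA sequenced, not an amount per cell.

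Levels of the members are given as CPM after TMM normalization, a correction that centres the bulk of genes between libraries. In WT they ran from 15.1 CPM (*IPI1*) to 317 CPM (*EBP2*) with a median of 85.7. Per kilobase of coding length, the WT level was lowest for *RIX7* (12.6) and highest for *NOP16* (265), with a median of 58.6 CPM per kilobase. By role group, the early nucleolar factors Brx1, Ebp2, Nop16 and Ssf1 had the highest median level per kilobase (173), followed by the placeholder group (136), and the group of Rea1, the Rix1 complex, Rix7 and Sda1 had the lowest (19.9). Gene positions are those of the R64 annotation. Replicates of a member were close, with a median coefficient of variation of 4.27% in WT, 4.14% in nascent *ulp2Δ*, 6.36% in line 6 and 4.59% in line 9.

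Taken as a sum, the 46 transcripts made up 4653, 4484 and 4734 CPM in the WT libraries and 3860, 4034 and 4028 CPM in nascent *ulp2Δ*. Line 6 had 2006, 2143 and 2059 CPM and line 9 had 3448, 3263 and 3323 CPM. The 4 groups did not overlap, and the means of 4624 ± 128 (WT), 3974 ± 99.0 (nascent *ulp2Δ*), 2069 ± 69.1 (line 6) and 3345 ± 94.2 CPM (line 9; SD, n = 3 each) placed the strains at 85.9%, 44.8% and 72.3% of WT. The median member relative to the WT mean followed the same order, with log2 values of -0.40, -0.35 and -0.34 in the nascent libraries, -1.43, -1.39 and -1.51 in line 6 and -0.62, -0.66 and -0.65 in line 9. These sums are descriptive and carry no test. They include the 7 members on chromosomes I and XII, whose genes were shifted upward in nascent *ulp2Δ*, as described below. *MDN1* alone had a mean of 311 CPM in WT, 530 in nascent *ulp2Δ*, 185 in line 6 and 353 in line 9. The 39 members on other chromosomes had median log2 fold changes of -0.42 (nascent *ulp2Δ*), -1.53 (line 6) and -0.71 (line 9).

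**Figure D2:**
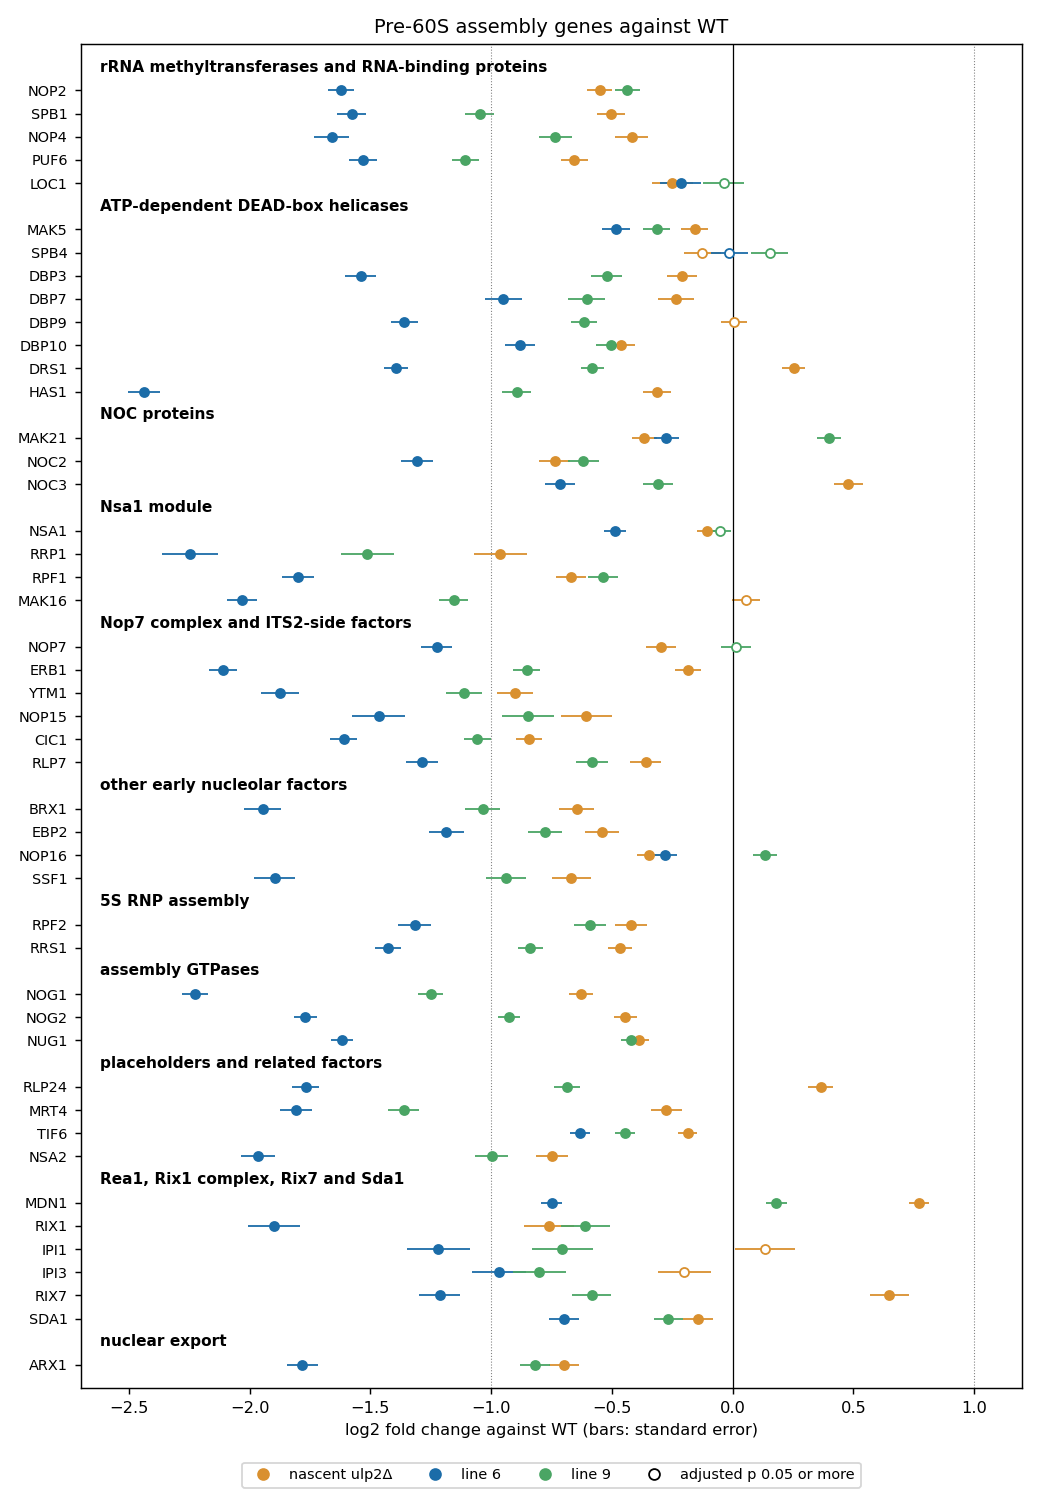
log2 fold change of each of the 46 genes against WT (x axis) in nascent *ulp2Δ* (orange), line 6 (blue) and line 9 (green), by role group, with standard errors as bars and open symbols where the adjusted p was 0.05 or more. The blue points of line 6 lie below -1, the 2-fold line, for 33 of 46 genes, and no blue point lies above 0.

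In nascent *ulp2Δ* against WT, 36 of the 46 genes were lower, 5 were higher and 5 did not pass the test (edgeR's quasi-likelihood test, adjusted p under 0.05 over all tested genes). Over all tested genes, 39.7% were lower and 33.6% higher. The median log2 fold change of the members, on which scale -1 is a fall of 2-fold, was -0.36 (quartiles -0.62 and -0.16) beside -0.03 for all tested genes. The differences were small, and none reached 2-fold in either direction (0 also with DESeq2, and 1 member without WT replicate 1), against 6.48% of tested genes higher and 2.67% lower by 2-fold. In 37 members every nascent library lay below every WT library, and in 5 every one lay above, against 40.5% and 35.5% of tested genes. *RRP1*, *YTM1* and *CIC1* fell furthest, and *MDN1*, *RIX7* and *NOC3* rose furthest.

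In line 6 against WT, 45 of the 46 genes were lower and none was higher, where 37.2% of tested genes were lower and 36.8% higher. Of these, 33 were lower by 2-fold or more, against 10.5% of tested genes (and 4.5% higher by 2-fold). The count of higher members was also 0 at an unadjusted p under 0.05 and with DESeq2. The median was -1.45 (quartiles -1.79 and -0.95) beside -0.01 for all tested genes, and the members ran from *HAS1* (-2.44) to *SPB4* (-0.01, adjusted p = 0.879), the 1 gene that did not pass. In 44 members the libraries of line 6 all lay below those of WT and in none above them, against 37.4% and 37.5% of tested genes.

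In line 9 against WT, 39 genes were lower, 3 (*MAK21*, *NOP16* and *MDN1*) were higher and 4 (*LOC1*, *SPB4*, *NSA1* and *NOP7*) did not pass, where 33.9% of tested genes were lower and 32.5% higher. The 9 that were lower by 2-fold or more, against 4.94% of tested genes (and 1.74% higher by 2-fold), were *RRP1*, *MRT4*, *NOG1*, *MAK16*, *YTM1*, *PUF6*, *CIC1*, *SPB1* and *BRX1*. The median was -0.62 (quartiles -0.92 and -0.44) beside -0.01 for all tested genes. In 39 members the libraries of line 9 all lay below those of WT, and in 3 they lay above, against 34.9% and 34.1% of tested genes. The 3 above were *MAK21*, *MDN1* and *SPB4*, whereas the *NOP16* libraries overlapped those of WT.

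The strains were also compared with each other. Line 6 was lower than nascent *ulp2Δ* in 42 genes and higher in none (1, *MAK21*, without line 6 replicate 1), with *LOC1*, *SPB4*, *MAK21* and *NOP16* not passing, where 38.9% of tested genes were lower and 40.1% higher. In that comparison 25 members were lower by 2-fold and none higher, against 12.6% and 5.23% of tested genes, and the median was -1.08. These included all 7 members on chromosomes I and XII, where 193 of the 597 tested genes were lower by 2-fold. Elsewhere 18 of 39 members were, with a median of -0.96. In 42 members every line 6 library lay below every nascent one, and in none above, against 40.2% and 41.1% of tested genes. Line 6 was lower than line 9 in 43 genes and higher in none, where 29.4% of tested genes were lower and 28.2% higher. No member was higher by 2-fold (2.07% of tested genes). The 9 genes lower by 2-fold there, against 2.35% of tested genes, were *HAS1*, *RIX1*, *ERB1*, *NOP7*, *NUG1*, *NOP2*, *RLP24*, *DBP3* and *RPF1*, and the median was -0.71. In 44 members the line 6 libraries all lay below those of line 9, and in none above, against 31.4% and 30.9% of tested genes. For both comparisons the count of higher members was also 0 at an unadjusted p under 0.05 and with DESeq2. Line 9 against nascent *ulp2Δ* was the least uniform of the 6 comparisons, with 31 genes lower, 5 higher (*LOC1*, *SPB4*, *MAK21*, *NOP7* and *NOP16*) and 10 not passing, where 37.9% of tested genes were lower and 38.2% higher, and with a median of -0.26. Only *MAK16*, *RLP24*, *MRT4* and *RIX7* were lower by 2-fold in it, against 10.6% of tested genes, and none was higher by 2-fold (3.75%). On chromosomes I and XII, 3 of the 7 members were lower by 2-fold in it, as were 201 of the 597 tested genes there. In 32 members the line 9 libraries all lay below the nascent ones and in 7 all above, against 39.5% and 39.8%. The 3 comparisons with WT share the WT libraries, and each comparison with nascent *ulp2Δ* or between lines shares libraries with them, so they are given side by side.

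Ranked by their group means, 28 of the 46 genes ran from high to low as WT, nascent *ulp2Δ*, line 9 and line 6, an order found in 9.04% of tested genes. Line 6 had the lowest mean in 42 genes, against 28.8% of tested genes, and its 3 libraries lay below all 9 others in 41, against 17.3%. WT had the highest mean in 34 genes (25.5% of tested genes). In 7 genes nascent *ulp2Δ* came before WT in an otherwise equal order. Of these, *DBP9*, *DRS1*, *NOC3*, *MAK16*, *RLP24* and *RIX7* lie on chromosomes I and XII, whose genes were shifted upward in that strain, and *IPI1* lies elsewhere. In 5 genes line 9 came before nascent *ulp2Δ*, and in 3 genes line 9 was highest and nascent *ulp2Δ* lowest. The single genes with other orders numbered 3.

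**Figure D3:**
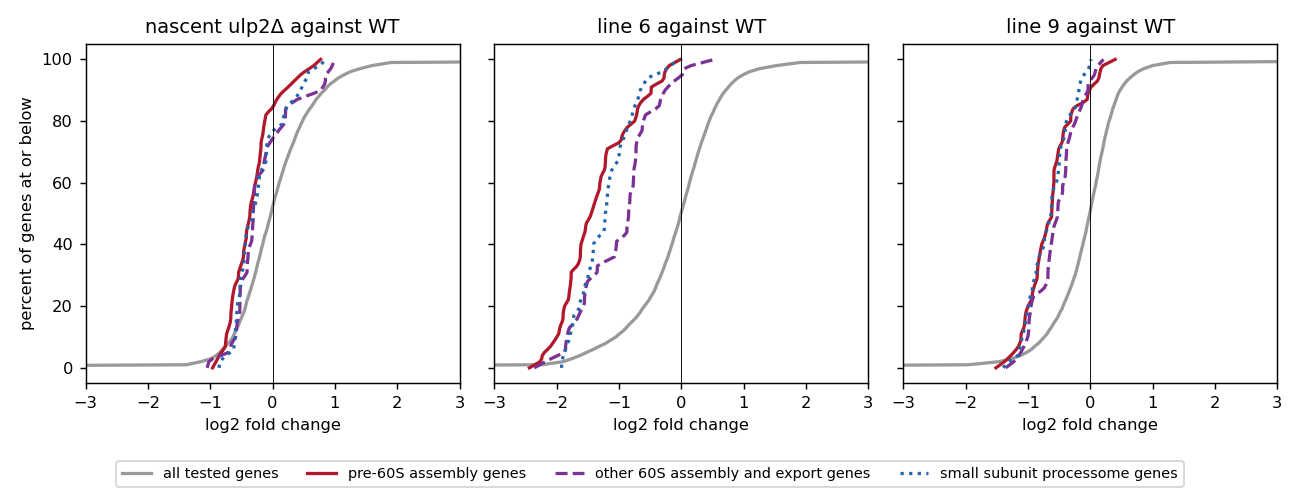
Cumulative percent of genes (y axis) at or below each log2 fold change against WT (x axis), in 1 panel per strain, for the 46 pre-60S assembly genes (red), 40 other large-subunit genes (purple dashes), 53 small subunit processome genes (blue dots) and all tested genes (grey). The red curve crosses 50% at -0.36 in nascent *ulp2Δ*, -1.45 in line 6 and -0.62 in line 9.

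The methyltransferases Nop2 and Spb1, which modify the large-subunit rRNA, and the RNA-binding proteins Nop4, Puf6 and Loc1 act on particles in the nucleolus. All 5 genes were lower in line 6, 4 of them by 2-fold, with a group median of -1.58. *NOP4* (YPL043W, chrXVI:469939-471996) had 91.2, 81.1 and 93.5 CPM in the WT libraries against 59.02, 68.2 and 71.7 in the nascent ones, with 27.02, 29.97 and 27.1 in line 6 and 54.1, 53.2 and 52.6 in line 9. Its libraries in line 6 lay below all others, with a log2 fold change of -1.66 (SE 0.07, adjusted p = 1.24e-11), and those of line 9 below WT (-0.73). *LOC1* (YFR001W, chrVI:149110-149724), whose protein also takes part in the localisation of *ASH1* mRNA, moved least of its group in line 6, with 85.4, 71.6 and 95.3 CPM in WT and 63.6, 75.9 and 72.7 in nascent cells, while line 6 had 71.8, 71.5 and 74.3 and line 9 had 85.1, 78.1 and 83.01. Its groups overlapped with WT in every strain, and its call in line 6 (-0.21, SE 0.09, adjusted p = 0.0341) was lost without WT replicate 1 (-0.20, adjusted p = 0.0837), WT replicate 3 (-0.11, adjusted p = 0.216), line 6 replicate 1 (-0.21, adjusted p = 0.0798) or line 6 replicate 2 (-0.20, adjusted p = 0.0816). *NOP2*, *SPB1* and *PUF6* lay between -1.62 and -1.53 in line 6, and *SPB1* (-1.05) and *PUF6* (-1.11) were also 2-fold lower in line 9, whereas *NOP2* was at -0.44.

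The 8 DEAD-box helicases, the largest role group, had the widest range in line 6, from -2.44 to -0.01 (median -1.15, 7 lower, 4 by 2-fold). Their SD over genes (0.73) was below those of the Nsa1 module (0.79) and the other early nucleolar factors (0.78). *HAS1* (YMR290C, chrXIII:850074-851591), a helicase that works on both subunits, had 82.1, 75.4 and 71.5 CPM in WT, 62.01, 57.1 and 65.2 in nascent cells, 14.1, 13.5 and 14.8 in line 6 and 42.99, 41.02 and 39.2 in line 9. Its line 6 libraries were the lowest, line 9 came next and no groups overlapped; the log2 fold changes were -2.44 (SE 0.07, adjusted p = 5.57e-14) in line 6, the largest fall of all 46 genes, -0.89 (SE 0.06, adjusted p = 4.74e-09) in line 9 and -0.31 in nascent *ulp2Δ*. The direct difference of line 6 from line 9 was -1.54 (SE 0.07, adjusted p = 3.68e-11), also the largest of the set. *SPB4* (YFL002C, chrVI:145114-146934), needed for late nucleolar folding, had 77.8, 74.4 and 76.6 CPM in the WT libraries against 62.3, 74.04 and 73.3 in the nascent ones, with 69.96, 80.4 and 76.2 in line 6 and 94.3, 79.4 and 81.01 in line 9. Its line 6 libraries lay on both sides of WT, its nascent libraries under WT and its line 9 libraries over it, and it passed the test against WT in no strain. *DRS1* (YLL008W, chrXII:131729-133987) had 134, 130.3 and 123 CPM in WT and 149.7, 154 and 157 in nascent cells, while line 6 had 50.8, 49.96 and 46.3 and line 9 had 84.5, 87.3 and 86.8. It was above WT in all nascent libraries (0.25, SE 0.05, adjusted p = 0.0002) and below WT in all libraries of line 6 (-1.39) and line 9 (-0.58). *DBP9* (YLR276C, chrXII:695046-696830) had 107, 115 and 108 CPM in WT, 104, 115 and 112 in nascent cells, 41.5, 45.7 and 41.4 in line 6 and 71.6, 71.1 and 72.3 in line 9. Its nascent libraries overlapped those of WT (0.01, adjusted p = 0.925), and it fell in line 6 (-1.36) and line 9 (-0.62). *MAK5*, *DBP3*, *DBP7* and *DBP10* were lower in both evolved lines, from -1.54 (*DBP3*) to -0.48 (*MAK5*) in line 6.

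The NOC proteins pair up in the nucleolus and travel with the particle: Mak21 (also Noc1) with Noc2 early, Noc2 with Noc3 later. They had the smallest median fall in line 6, -0.71. *MAK21* (YDR060W, chrIV:570649-573726) had 114, 106 and 113 CPM in the WT libraries against 82.3, 88.7 and 87.4 in the nascent ones, with 85.2, 96.2 and 93.9 in line 6 and 146, 147 and 146 in line 9. It was lowest in nascent *ulp2Δ* (-0.37) and line 6 (-0.27, SE 0.05, adjusted p = 0.000178) and higher in line 9 than in any other group, 0.40 (SE 0.05, adjusted p = 5.51e-06), the largest rise of a member in that line. Its promoter stretch holds PAC and RRPE 17 bases apart, as that of *DRS1* does. *NOC2* (YOR206W, chrXV:727512-729644) had 130.2, 118 and 136 CPM in WT and 70.8, 77.2 and 82.6 in nascent cells, while line 6 had 50.5, 55.1 and 49.7 and line 9 had 84.9, 82.2 and 83.1. It was lower in all 3 strains, with log2 fold changes of -0.74 (nascent), -1.31 (SE 0.07, adjusted p = 6.02e-11) in line 6 and -0.62 in line 9. *NOC3* (YLR002C, chrXII:154343-156334) had 50.3, 43.95 and 50.1 CPM in WT, 67.8, 66.1 and 67.4 in nascent cells, 31.4, 29.5 and 27.03 in line 6 and 37.1, 38.3 and 41.1 in line 9, so that it was highest in nascent *ulp2Δ* (0.48, SE 0.06, adjusted p = 3.65e-06) and below WT in both line 6 (-0.71) and line 9 (-0.31).

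**Figure D4:**
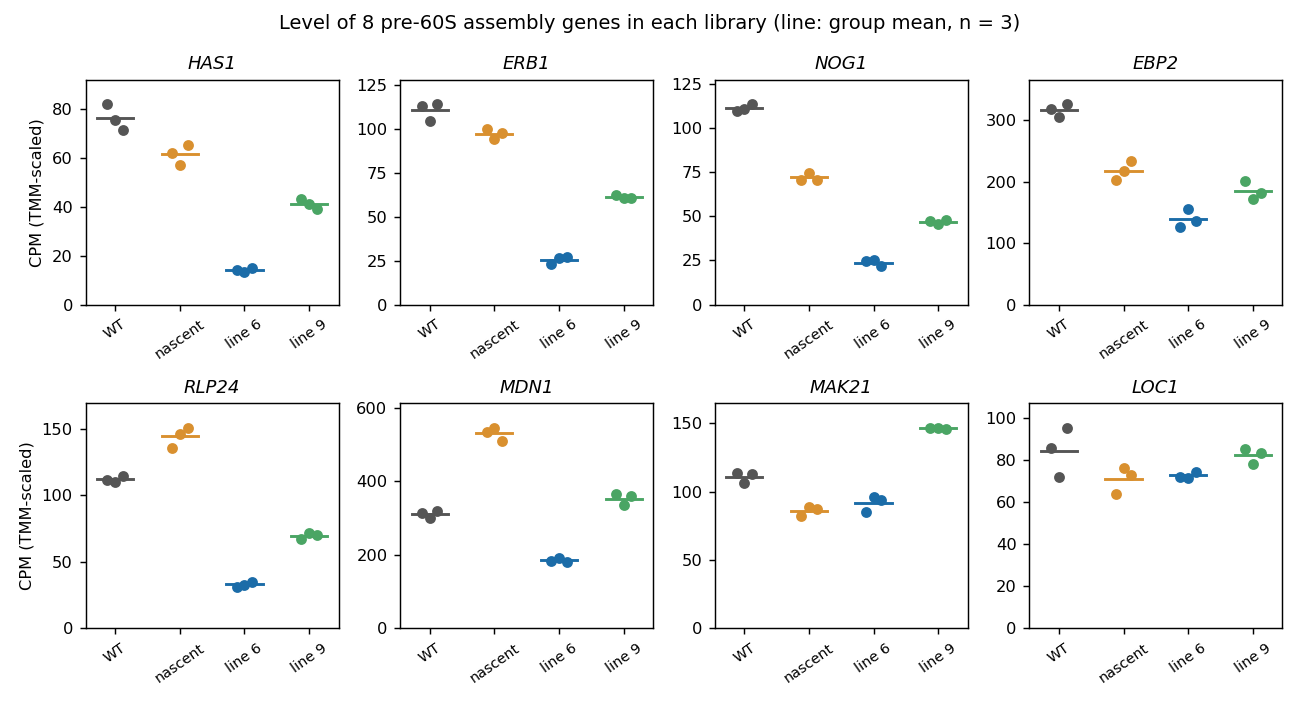
TMM-scaled CPM of 8 genes in each library (points) with the group mean (line, n = 3), for WT, nascent *ulp2Δ*, line 6 and line 9. *HAS1*, *ERB1*, *NOG1* and *EBP2* fall from WT to line 6, and *RLP24* and *MDN1* are highest in nascent *ulp2Δ*. *MAK21* is highest in line 9, and for *LOC1* each strain overlaps WT, while line 9 lies above nascent *ulp2Δ* and line 6.

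The Nsa1 module (Nsa1, Rrp1, Rpf1 and Mak16) sits on the outer face of the early particle until Rix7 removes it. It had the lowest median of the role groups in line 6, -1.92, with 3 of its 4 genes lower by 2-fold. *RRP1* (YDR087C, chrIV:617470-618306) had 28.2, 30.5 and 33.2 CPM in the WT libraries against 15.3, 16.3 and 15.6 in the nascent ones, with 6.05, 6.96 and 6.32 in line 6 and 9.24, 12.1 and 10.8 in line 9. No groups overlapped, and it showed the largest falls of a member in nascent *ulp2Δ* (-0.96, SE 0.11, adjusted p = 1.15e-06) and in line 9 (-1.51, SE 0.11, adjusted p = 1.41e-08) and the second largest in line 6 (-2.25, SE 0.12, adjusted p = 8.43e-11). *MAK16* (YAL025C, chrI:100225-101145) had 65.04, 66.5 and 64.3 CPM in WT and 67.5, 66.3 and 69.6 in nascent cells, while line 6 had 14.4, 17.8 and 15.5 and line 9 had 30.7, 29.2 and 27.96. Its nascent libraries did not pass against WT (0.06, adjusted p = 0.396), while line 6 (-2.03, SE 0.06, adjusted p = 2.26e-13) and line 9 (-1.16, SE 0.06, adjusted p = 3.09e-10) fell by more than 2-fold. *NSA1* (YGL111W, chrVII:299978-301369), which gives the module its name, had 105, 103 and 100.4 CPM in WT, 92.2, 98.01 and 96.9 in nascent cells, 72.3, 75.9 and 71.9 in line 6 and 100.5, 98.05 and 99.5 in line 9. It was lower in line 6 (-0.49), did not pass in line 9 (-0.05, adjusted p = 0.329), and in nascent *ulp2Δ* its value of -0.10 was 0.043 with library totals in place of TMM. *RPF1* stood at -1.80 in line 6 and -0.54 in line 9.

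Nop7, Erb1 and Ytm1 form a complex (PeBoW in mammals) on which the ring-shaped ATPase Rea1 pulls, and Nop15, Cic1 and Rlp7 bind the ITS2 spacer beside it. All 6 genes were lower by 2-fold in line 6 (median -1.54). *ERB1* (YMR049C, chrXIII:368094-370517) had 113, 105 and 114 CPM in the WT libraries against 100.3, 94.5 and 97.8 in the nascent ones, with 23.3, 26.4 and 27.2 in line 6 and 62.3, 60.8 and 60.9 in line 9. It fell most in line 6 (-2.11, SE 0.06, adjusted p = 6.25e-14), less in line 9 (-0.85, SE 0.05, adjusted p = 3.18e-09), and in nascent *ulp2Δ* its value of -0.18 (adjusted p = 0.0064) lost the call without nascent replicate 2 (-0.14, adjusted p = 0.0511). *YTM1* (YOR272W, chrXV:832813-834195) had 66.3, 56.8 and 58.6 CPM in WT and 31.1, 33.5 and 32.7 in nascent cells, while line 6 had 17.3, 14.5 and 17.9 and line 9 had 28.2, 27.9 and 27.9. It was already low in the nascent libraries (-0.90, SE 0.07, adjusted p = 2.74e-08), and it stood at -1.87 in line 6 and -1.11 in line 9. *NOP7* (YGR103W, chrVII:695417-697234) had 175, 159.6 and 178 CPM in WT, 132, 141 and 144 in nascent cells, 71.6, 80.4 and 66.9 in line 6 and 181, 166 and 170.5 in line 9. Line 9 overlapped WT (0.01, adjusted p = 0.85) while line 6 lay below every other library (-1.23, SE 0.06, adjusted p = 9.32e-11), a direct difference between the lines of -1.24 (SE 0.06, adjusted p = 2.37e-10). *CIC1* (YHR052W, chrVIII:210848-211978) had 69.3, 68.7 and 68.3 CPM in the WT libraries against 37.98, 40.4 and 36.6 in the nascent ones, with 22.3, 23.4 and 21.8 in line 6 and 35.8, 32.4 and 30.98 in line 9. All 3 strains were lower than WT, at -0.84 (SE 0.05, adjusted p = 1.96e-09) in nascent *ulp2Δ*, -1.61 in line 6 and -1.06 in line 9. *NOP15* and *RLP7* were also lower in all 3 strains, at -1.47 and -1.29 in line 6.

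Among the other early nucleolar factors, Brx1 and Ebp2 bind each other. *BRX1* (YOL077C, chrXV:185848-186723) had 84.2, 85.3 and 90.5 CPM in WT and 54.3, 54.9 and 56.98 in nascent cells, while line 6 had 20.3, 20.9 and 26.4 and line 9 had 45.3, 41.4 and 40.3. It was lower in every strain with no overlap with WT, and stood at -0.65 in nascent *ulp2Δ*, -1.95 (SE 0.08, adjusted p = 3.95e-12) in line 6 and -1.04 in line 9. *NOP16* (YER002W, chrV:156803-157498), the gene with the highest level per kilobase, had 180.4, 179 and 194 CPM in WT, 140.4, 147 and 148 in nascent cells, 143, 151 and 162 in line 6 and 212, 202 and 194 in line 9. It was lower in nascent *ulp2Δ* (-0.35, SE 0.05, adjusted p = 1.32e-05) and line 6 (-0.28, SE 0.05, adjusted p = 0.000107), while its line 9 libraries reached from the WT range to above it (0.13, adjusted p = 0.025). That last call was lost without WT replicate 1 (0.12, adjusted p = 0.0829), WT replicate 2 (0.11, adjusted p = 0.0884) or line 9 replicate 1 (0.11, adjusted p = 0.0777). *EBP2* stood at -1.19 and *SSF1* at -1.90 in line 6. Counts of *SSF1* may include reads of its paralog *SSF2*, with which it shares 92.1% of 1362 aligned bases and 53 of its 1313 words of 50 bases; no such word of the other 45 members occurs elsewhere in the genome.

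Rpf2 and Rrs1 bring the 5S RNA and its proteins into the particle, and both genes had the order of group means shared by 28 of the 46 members. *RPF2* (YKR081C, chrXI:591506-592540) had 84.2, 79.99 and 90.3 CPM in the WT libraries against 60.2, 68.8 and 61.3 in the nascent ones, with 34.1, 35.8 and 32.3 in line 6 and 60.02, 57.6 and 51.5 in line 9. *RRS1* (YOR294W, chrXV:868340-868951) had 57.7, 57.6 and 58.8 CPM in WT and 41.5, 42.2 and 42.2 in nascent cells, while line 6 had 21.5, 23.2 and 19.9 and line 9 had 32.5, 31.4 and 33.4. Both were lower in all 3 strains without overlap with WT, with log2 fold changes of -1.32 (SE 0.07, adjusted p = 1.16e-10) for *RPF2* and -1.43 (SE 0.05, adjusted p = 1.77e-12) for *RRS1* in line 6. In line 9 they were -0.59 and -0.84, and in nascent *ulp2Δ* -0.42 and -0.47.

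The assembly GTPases time the maturation steps, and all 3 genes were lower by 2-fold in line 6 (median -1.77). *NOG1* (YPL093W, chrXVI:370978-372921) had 109.5, 111 and 114 CPM in WT, 70.6, 74.4 and 70.7 in nascent cells, 24.5, 25.1 and 21.6 in line 6 and 47.1, 45.3 and 47.8 in line 9. It stepped down from WT through nascent *ulp2Δ* (-0.63, SE 0.05, adjusted p = 1.97e-08) and line 9 (-1.25, SE 0.05, adjusted p = 2.73e-11) to line 6 (-2.23, SE 0.05, adjusted p = 1.63e-14), with no overlap between groups. *NUG1* (YER006W, chrV:162723-164285) had 153, 146 and 157 CPM in the WT libraries against 118, 114 and 116 in the nascent ones, with 47.4, 50.2 and 50.9 in line 6 and 111, 116 and 114 in line 9. Its nascent and line 9 libraries lay close together (-0.39 and -0.42), and line 6 was lower than both (-1.62, SE 0.05, adjusted p = 8.02e-14). *NOG2* stood at -0.44 in the nascent strain, against -1.77 for line 6 and -0.93 for line 9. An intron of *NOG2* holds the small nucleolar RNA gene *SNR191* (274 bases), the only annotated gene that overlaps a member, and its reads cannot be told apart from those of *NOG2* without knowing whether strand and introns were counted.

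Rlp24 and Mrt4 hold the places of ribosomal proteins that join later, and Tif6 keeps the subunits from joining too early. *RLP24* (YLR009W, chrXII:166537-167136) had 112, 110.0 and 115 CPM in WT and 136, 146 and 151 in nascent cells, while line 6 had 31.1, 32.8 and 34.9 and line 9 had 67.5, 71.5 and 69.9. It was above WT in nascent *ulp2Δ* (0.36, SE 0.05, adjusted p = 1.56e-05) and far below it in line 6 (-1.77, SE 0.06, adjusted p = 2.78e-13), with line 9 between (-0.69). *NSA2* (YER126C, chrV:413394-414179) had 65.4, 65.9 and 71.7 CPM in WT, 39.2, 39.5 and 42.2 in nascent cells, 15.7, 16.9 and 19.4 in line 6 and 35.4, 31.9 and 34.4 in line 9, with the largest fall of this group in line 6 (-1.97). *TIF6* (YPR016C, chrXVI:592332-593069) had 168, 172 and 156 CPM in the WT libraries against 148, 142 and 146 in the nascent ones, with 110.5, 105 and 104 in line 6 and 121, 121 and 122 in line 9, the smallest fall of the group in line 6 (-0.63). *MRT4* was among the genes lower by 2-fold in both lines (-1.81 in line 6 and -1.36 in line 9), and stood at -0.27 in nascent *ulp2Δ*.

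The group of Rea1 (encoded by *MDN1*), the Rix1 complex, Rix7 and Sda1 acts at the passage from nucleolus to nucleoplasm, and in nascent *ulp2Δ* 2 of its genes were higher, 2 lower and 2 did not pass, shares near those of all tested genes (33.6% higher and 39.7% lower). Both of the higher ones, *MDN1* and *RIX7*, are on chromosome XII, and genes of chromosomes I and XII were shifted upward in that strain, as described below. *MDN1* (YLR106C, chrXII:349006-363738), at 14733 bases the longest member, had 314, 299.9 and 319 CPM in WT and 535, 546 and 510.4 in nascent cells, while line 6 had 184, 191 and 179.9 and line 9 had 365, 335 and 359. It rose in nascent *ulp2Δ* (0.77, SE 0.04, adjusted p = 2.42e-10), the largest rise of a member in that strain, fell in line 6 (-0.75, SE 0.04, adjusted p = 2.65e-10) and was higher in line 9 (0.18, SE 0.04, adjusted p = 0.00133). *RIX7* (YLL034C, chrXII:70633-73146) had 29.01, 33.1 and 32.99 CPM in WT, 50.7, 47.9 and 50.6 in nascent cells, 14.1, 12.2 and 14.7 in line 6 and 20.6, 19.9 and 22.98 in line 9, higher in nascent *ulp2Δ* (0.65, SE 0.08, adjusted p = 2.91e-06) and lower in line 6 (-1.21) and line 9 (-0.58). *RIX1* (YHR197W, chrVIII:493896-496187) had 44.6, 39.3 and 48.5 CPM in the WT libraries against 25.5, 30.2 and 22.4 in the nascent ones, with 11.8, 11.7 and 11.9 in line 6 and 28.02, 31.4 and 27.3 in line 9. It fell in all 3 strains and furthest in line 6 (-1.90, SE 0.11, adjusted p = 2.85e-10). *SDA1* (YGR245C, chrVII:979765-982068) had 79.04, 76.2 and 83.95 CPM in WT and 69.1, 74.2 and 73.2 in nascent cells, while line 6 had 47.7, 53.6 and 45.9 and line 9 had 67.5, 62.1 and 69.4. It was lower in line 6 (-0.70) and line 9 (-0.27), and its nascent value of -0.14 was 0.0036 with library totals in place of TMM. *IPI1* and *IPI3*, which encode the partners of Rix1, did not pass in nascent *ulp2Δ* (0.13 and -0.20) and were lower in line 6 (-1.22 and -0.97). The export factor gene *ARX1* (YDR101C, chrIV:655686-657467) had 74.1, 73.3 and 71.8 CPM in WT, 43.2, 44.9 and 47.04 in nascent cells, 21.6, 19.04 and 23.2 in line 6 and 44.6, 39.8 and 40.03 in line 9. It was lower in all strains without overlap with WT (-0.70 in nascent *ulp2Δ*, -1.78 (SE 0.07, adjusted p = 1.64e-12) in line 6 and -0.82 in line 9).

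The members that were higher in nascent *ulp2Δ* shared a chromosome. Chromosome XII holds 6 members (*NOC3*, *DBP9*, *DRS1*, *RLP24*, *MDN1* and *RIX7*) and chromosome I holds *MAK16*, and all 5 genes that were higher in nascent *ulp2Δ* are on chromosome XII. Tested genes of chromosomes I and XII that are no members (590) were themselves shifted upward in that strain, with a median of 0.70 beside -0.08 for 5736 genes of the other chromosomes. Set against the genes of the same chromosomes, the 7 members had a median of 0.36, which is 0.33 lower, and 6 of the 7 lay below the median of their chromosomes. The 39 members elsewhere had a median of -0.42, which is 0.34 lower than other genes there, and 38 of the 39 lay below that median. Among these 39, 36 were lower, 0 were higher (also 0 at an unadjusted p under 0.05) and *SPB4*, *IPI1* and *IPI3* did not pass, where 43.4% of the tested genes outside chromosomes I and XII were lower and 28.2% higher.

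In the evolved lines, the medians of the members lay under WT on chromosomes I and XII and on the others, although *MDN1*, *MAK21* and *NOP16* were higher than WT in line 9. In line 6, members on chromosomes I and XII had a median of -1.36 beside -0.04 for other genes there, and members elsewhere one of -1.53 beside 0.00. In line 9 the medians were -0.58 beside -0.03 and -0.71 beside -0.00. Every member lay below the median of its chromosomes in line 6, and 6 of 7 and 35 of 39 did in line 9.

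**Figure D5:**
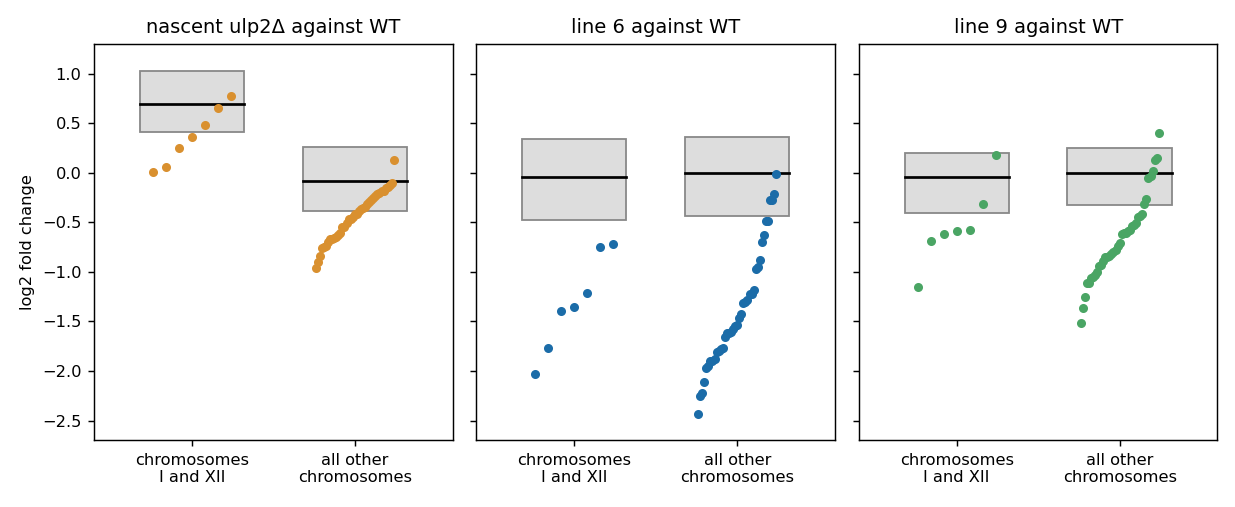
log2 fold change against WT of members on chromosomes I and XII and on all other chromosomes (points, sorted by value), over the quartiles (box) and median (line) of all tested genes on the same chromosomes. In nascent *ulp2Δ*, members on chromosomes I and XII have a median of 0.36 and those elsewhere one of -0.42.

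Other genes of the pathway were mostly lower as well. The shares of all tested genes to set beside them were 39.7% lower and 33.6% higher in nascent *ulp2Δ*. They were 37.2% and 36.8% in line 6 and 33.9% and 32.5% in line 9. By 2-fold, 10.5% of tested genes were lower in line 6 and 4.94% in line 9. Of 40 further genes for large-subunit assembly and export, 25 were lower and 10 higher in nascent *ulp2Δ* (median -0.31), 37 were lower and 1 higher in line 6 (-0.85), and 35 were lower and 1 higher in line 9 (-0.52). By 2-fold, 17 were lower in line 6 and 4 in line 9. The largest fall in line 6 was that of *DBP2* (-2.36, SE 0.05, adjusted p = 4.4e-15), a DEAD-box helicase gene, and the largest rise that of *REH1* (0.53, SE 0.04, adjusted p = 4.73e-09), whose protein acts on cytoplasmic particles. In line 9 they were those of *RSA4* (-1.36, SE 0.11, adjusted p = 2.8e-08), the partner of Rea1, and again *REH1* (0.21, SE 0.04, adjusted p = 0.000157). In nascent *ulp2Δ* *NOP8* fell most (-1.05, SE 0.06, adjusted p = 3.81e-10) and *GRC3*, which lies on chromosome XII, rose most (0.99, SE 0.10, adjusted p = 2.86e-07). For the 53 genes of the small subunit processome, the counterpart that builds the other subunit, 33 were lower and 12 higher in nascent *ulp2Δ* (median -0.33), 52 were lower in line 6 (-1.22, 36 by 2-fold) and 49 in line 9 (-0.63, 10 by 2-fold), and none was higher in either line. No test was made of a difference between these lists and the pre-60S genes.

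The members were last divided by the motifs in their promoters, as a description with no test. In line 6 the 26 genes with both motifs had a median of -1.58 (-2.44 to -0.21), the 6 with PAC alone one of -1.30 (-2.25 to -0.28) and the 14 with RRPE alone one of -1.39 (-1.90 to -0.01). In line 9 the medians were -0.59, -0.67 and -0.70, and in nascent *ulp2Δ* -0.38, -0.38 and -0.19. *HAS1* (-2.44 in line 6) and *MAK21* (-0.27), whose stretches are printed above, both hold the 2 motifs, as does *LOC1* (-0.21). The *SPB4* promoter, whose gene did not pass against WT in any strain, holds RRPE. Both motifs were present in 30.0% of the promoters of the 40 further large-subunit genes and in 54.7% of those of the 53 processome genes.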

How the data were processed

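Total RNA of yeast was sequenced in 12 libraries (3 per group) on an Illumina instrument with paired reads. Per the study's methods and processing notes, the authors trimmed reads with Trim Galore (version 0.5.0), aligned them with HISAT2 (version 2.1.0) to sacCer3 and quantified genes with StringTie (version 1.3.3b). The values they deposited are counts, whole numbers for each gene with no scaling; whether strand was used is not given in the sources used here. Of 7114 features, 6 unnamed loci (0.0826% to 0.173% of counts) were left out, and 6045 of the 7108 others matched the R64 annotation, among them all 46 members; 1063 did not. Whether unmatched features overlap members was not checked. Library totals of 20467216 to 30719553 counts set the precision. Sequences and positions came from the RefSeq R64 genome, the same assembly as sacCer3; RefSeq names MDN1 as REA1.

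Counts were filtered with filterByExpr, scaled by TMM and fitted with edgeR's (version 4.0.16) quasi-likelihood test in R (version 4.3.3), over all 12 libraries with 1 mean per group and no covariate. Genes were called higher or lower at a Benjamini-Hochberg adjusted p under 0.05 over 6372 tested genes, and 2-fold where the log2 fold change was also at least 1 in size. The standard errors (SE) given are the size of the log2 fold change divided by the square root of that test's F statistic. DESeq2 (version 1.42.0) was an alternative, as were other scalings, no filter, 2 groups alone, a replicate block, leaving out each library and leaving out members by position. The scripts were tested on simulated data. Replicate libraries differed by more than sampling noise. In each role group the members with the largest and smallest change in line 6 were described in full, with the 3 highest and 3 lowest in nascent *ulp2Δ*, all on chromosomes I and XII, and all that were higher in an evolved line; the others are given in brief. Members outside that rule are named to account for all 46, and EBP2 was plotted, after its values were seen, as the member with the highest CPM in WT. The members, lists and tests were chosen with earlier results of these data known.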

Additional observations from a re-analysis of the deposited data

Results flagged for a closer look

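Some members were called in opposite directions against WT in 2 strains, and the difference between those strains was then tested directly with edgeR's quasi-likelihood test. Groups of 3 libraries were not screened for single deviating libraries.

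Higher than WT in nascent *ulp2Δ* and lower than WT in line 6 were *DRS1*, *NOC3*, *RLP24*, *MDN1* and *RIX7*, all on chromosome XII. The 597 tested genes of chromosomes I and XII had a median of -0.74 in line 6 against nascent *ulp2Δ*. The direct log2 difference of line 6 from nascent *ulp2Δ* was -1.65 for *DRS1* (adjusted p = 1.21e-13), -1.19 for *NOC3* (adjusted p = 8.06e-11), -2.13 for *RLP24* (adjusted p = 2.66e-14), -1.52 for *MDN1* (adjusted p = 5.45e-14) and -1.86 for *RIX7* (adjusted p = 1.46e-11).

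Of these, *DRS1* (-0.83, adjusted p = 3.5e-10), *NOC3* (-0.79, adjusted p = 1.1e-08), *RLP24* (-1.05, adjusted p = 7.99e-11) and *RIX7* (-1.23, adjusted p = 1.77e-09) were also lower than WT in line 9, the values being the direct difference of line 9 from nascent *ulp2Δ*. The median of that difference over the 597 tested genes of chromosomes I and XII was -0.74, close to the values of *DRS1* and *NOC3*. *MAK21* and *NOP16* had the opposite pattern, lower than WT in nascent *ulp2Δ* and higher in line 9, with direct differences of 0.77 (adjusted p = 2.02e-09) and 0.48 (adjusted p = 3.07e-07); the call of *NOP16* in line 9 was lost without WT replicate 1 (0.12, adjusted p = 0.0829), WT replicate 2 (0.11, adjusted p = 0.0884) or line 9 replicate 1 (0.11, adjusted p = 0.0777).

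Between the evolved lines, *MAK21*, *NOP16* and *MDN1* were lower than WT in line 6 and higher in line 9. The direct difference of line 6 from line 9 was -0.67 for *MAK21* (adjusted p = 2.08e-08), -0.41 for *NOP16* (adjusted p = 3.51e-06) and -0.93 for *MDN1* (adjusted p = 6.64e-11).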

How the results depend on the processing

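Under an alternative there were 5520 values of single members (276 values under 20 alternatives each). Of these, 5379 kept their side of the threshold and, where called, also their direction. Another 76 lost a call, 59 gained one and 6 changed sign with a call in the main fit or the alternative. Changes of sign in values called in neither were not counted. All 6 changes of sign came with library totals in place of TMM, a scaling that moved the median of all tested genes to 0.12 in nascent *ulp2Δ* and -0.11 in line 6 against WT and to -0.25 (line 6) and -0.18 (line 9) against nascent *ulp2Δ*. They were *NSA1* (0.043) and *SDA1* (0.0036) in nascent *ulp2Δ* against WT, *LOC1* (-0.21), *MAK21* (-0.16) and *NOP16* (-0.18) in line 6 against nascent *ulp2Δ*, and *NSA1* (-0.13) in line 9 against nascent *ulp2Δ*. With library totals 27 members were lower and 7 higher in nascent *ulp2Δ* than in WT, and the members' median was -0.22 in nascent *ulp2Δ* and -1.55 in line 6 against WT, -1.33 (line 6) and -0.44 (line 9) against nascent *ulp2Δ*, and -0.79 for line 6 against line 9; 2 members were higher in line 9 than in nascent *ulp2Δ* and 14 were lower by 2-fold in line 6 than in line 9. With TMM factors taken without chromosomes I, XII and the mitochondrial genome, the medians against nascent *ulp2Δ* were -1.15 (line 6) and -0.34 (line 9). Without the members on chromosomes I and XII, 0 members rose in nascent *ulp2Δ* against WT, the median was -0.71 in line 9 against WT and -0.96 in line 6 against nascent *ulp2Δ*, and 1 member was lower by 2-fold in line 9 than in nascent *ulp2Δ*. Apart from the fewer members in the last of these, the cause was not tested.

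Leaving out 1 library at a time gave 31 to 36 lower members in nascent *ulp2Δ* against WT, 0 to 1 of them by 2-fold (1 without WT replicate 1), 44 to 45 in line 6 and 39 in line 9. The count of members higher in line 6 than in nascent *ulp2Δ* was 0 to 1 (1, *MAK21*, without line 6 replicate 1), and the median of line 9 against nascent *ulp2Δ* ran from -0.32 to -0.25 (-0.32 without line 9 replicate 1, -0.30 without nascent replicate 1). In nascent *ulp2Δ* against WT, 7 lower calls were lost without some library: *DBP3* without nascent replicate 1 (-0.12, adjusted p = 0.0982), *DBP7* without nascent replicate 3 (-0.13, adjusted p = 0.121), *ERB1* without nascent replicate 2 (-0.14, adjusted p = 0.0511), *LOC1* without nascent replicate 1 or WT replicate 3 (adjusted p of 0.123 and 0.106), *MAK5* without any of 5 libraries (0.055 to 0.121), *SDA1* without any of 7 (0.0579 to 0.24) and *NSA1* without any of 9 (0.0533 to 0.342). In line 9 against nascent *ulp2Δ*, *LOC1* (0.0578 to 0.209 over 4 libraries), *RPF2* (0.103 and 0.1485 over 2) and *MAK5* (0.111 without line 9 replicate 2) lost their calls, as did *MAK5* in line 6 against line 9 (0.0533 to 0.123 over 3).

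Libraries share replicate numbers across groups, but the correlation of same-numbered libraries ran from -0.14 to 0.11 over 18 pairs, so the numbers were not taken to pair them. With the replicate number as a block the medians were -0.36, -1.45 and -0.62 against WT, and *NSA1* and *SDA1* in nascent *ulp2Δ* lost their calls.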
